A study of Mus musculus with 12 samples.

Results

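The uridine diphosphate glucuronosyltransferases (UGT), the glutathione S-transferases (GST), their microsomal relatives (MGST) and the sulfotransferases (SULT) were examined in primary mouse hepatocytes on 12 Affymetrix mouse expression arrays. Members were chosen by symbol, as genes of the Ugt1 to Ugt3, Gst, Mgst and Sult families with a probe set annotated to that gene alone, and where a gene had several, the brightest over the 12 arrays stood for it. This gave 46 of 18193 genes, of which 10 are UGT, 20 GST, 3 MGST and 13 SULT genes, on 59 probe sets in all. The rule used symbols and no measured difference. In each genotype 3 arrays were treated with TCDD and 3 with vehicle. The human AHR cells came from mice labelled B6.Cg-Ahrtm3.1Bra, with a floxed Ahr allele. These mice also carry Tg (Alb-cre, Ttr-AHR)1Ghp, in which the albumin promoter drives Cre and the transthyretin promoter drives human AHR. The wild type cells came from C57BL6/J mice with the mouse receptor and neither transgene. Cells of either genotype were cultured for 48 h in medium with 2.5% dimethyl sulfoxide and 10 nM dexamethasone, and then received 10 nM TCDD or dimethyl sulfoxide vehicle for 6 h. The labels give no age or sex and no group with the floxed allele and Cre but without the human receptor, so the receptor, the transgenes and the strain cannot be told apart between genotypes.

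These enzymes carry out conjugation, the step of hepatic detoxification that follows oxidation. UGTs add glucuronic acid, GSTs add glutathione and SULTs add sulfate, and the products leave the hepatocyte through transporters into bile or blood. TCDD, a dioxin, activates the aryl hydrocarbon receptor (AHR), which binds a DNA element with the core GCGTG. UGT1A6 and the alpha class GSTs are textbook targets of this receptor in rodents, and GST genes also respond to the factor NRF2 through an element with the core TGACNNNGC. Several SULT, GST and UGT2B genes are known to differ between male and female mouse liver.

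Promoter windows (RefSeq, build GRCm38.p6, 250 bases before to 50 after a start) were found for 41 of the 46 genes, in 53 windows. GCGTG on either strand was present in 11 of the 53 windows (20.75%), from 9 genes, and in 32.39% of all 32851 windows. TGACNNNGC was present in 4 windows (7.547%), from 4 genes, and in 12.39% of all windows. A match describes letters only and shows no binding. Each window below is written 5′ to 3′ on the gene's own strand, with motif matches on either strand in capitals. Gsta2 (chr9:78347096-78347395, minus strand) is shown as an alpha class gene with a match to the receptor core, Gstp1 (chr19:4037863-4038162, minus strand) as a second gene with that match, and Mgst1 (chr6:138140277-138140576, plus strand) as one of 4 genes with the TGACNNNGC core, which lies on the opposite strand there.
Gsta2: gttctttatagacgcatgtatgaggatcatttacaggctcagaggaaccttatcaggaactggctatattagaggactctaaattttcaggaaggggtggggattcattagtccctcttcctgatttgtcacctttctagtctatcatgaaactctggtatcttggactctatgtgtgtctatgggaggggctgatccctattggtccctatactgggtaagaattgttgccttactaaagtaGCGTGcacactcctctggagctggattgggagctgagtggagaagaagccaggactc
Gstp1: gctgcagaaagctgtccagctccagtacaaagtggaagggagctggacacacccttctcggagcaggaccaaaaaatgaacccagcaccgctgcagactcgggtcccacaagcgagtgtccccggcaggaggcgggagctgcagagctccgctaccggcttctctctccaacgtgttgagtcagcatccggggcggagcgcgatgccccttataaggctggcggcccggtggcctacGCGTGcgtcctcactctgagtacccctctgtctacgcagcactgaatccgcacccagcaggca
Mgst1: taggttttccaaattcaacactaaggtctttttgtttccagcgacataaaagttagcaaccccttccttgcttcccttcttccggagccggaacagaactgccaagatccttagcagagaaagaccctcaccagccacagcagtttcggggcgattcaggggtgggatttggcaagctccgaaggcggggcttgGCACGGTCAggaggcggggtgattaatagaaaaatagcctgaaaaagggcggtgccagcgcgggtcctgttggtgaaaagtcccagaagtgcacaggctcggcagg

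Arrays give no counts, and precision rests on 3 arrays a group. After rescaling to one trimmed mean, array medians lay between 16.5 and 23.5, and arrays of a group correlated across genes with r from 0.958 to 0.985. The Gapdh 3′ to 5′ ratio lay between 0.798 and 0.841, and that of beta-actin was higher, between 1.33 and 1.56. The summed signal of 9 measured hepatocyte markers lay between 45570 and 61890 on all arrays, but Alb, Ttr and Apoa1 made up most of it. Single markers varied more. Cyp2e1 ran from 3637 in wild type TCDD replicate 2 to 10250 in wild type TCDD replicate 3. Tat ran from 215.7 to 1072, highest in wild type TCDD replicate 3. Apob went the other way, with 727.9 in wild type TCDD replicate 3 and 2931 in wild type TCDD replicate 2. The response of the receptor was visible: Tiparp, an AHR-induced ADP-ribosyltransferase, rose by 1.37 (log2) in human AHR cells (limma adjusted p = 0.00537) and by 1.30 in wild type cells (adjusted p = 0.0192). Cyp1a1, the classical target, rose by 6.09 in human AHR cells (limma adjusted p = 0.0424) and differed by 3.00 in wild type cells (adjusted p = 0.966). Wild type TCDD replicate 2 read 2518 and the other wild type TCDD arrays 124.9 and 64.89, each above the wild type vehicle arrays (25.3, 24 and 18.5). Leaving out both wild type replicate 2 arrays gave wild type differences of 1.5 for Cyp1a1 and 1.03 for Tiparp, neither of which then passed (limma adjusted p = 0.780 and 0.145). These arrays stood apart. In wild type replicate 2, Xist, expressed from the inactive X of females, read 2952 under TCDD and 3085 under vehicle, and no other array exceeded 29.3. The Y-linked gene Eif2s3y read 0.42 under TCDD and 4.7 under vehicle there, and 452.7 or more on the other arrays. This is the pattern of female cells, so each wild type group held 1 female-type and 2 male-type arrays and each human AHR group held male-type arrays alone. Sex was not a term of the fit, and values without both replicate 2 arrays are given beside the main results they move. Wild type TCDD replicate 3 also stood apart, as the highest of the 12 arrays for 16 of the 46 genes, against 17.3% of all genes. Of the 46 TCDD differences in wild type cells, 18 had the opposite sign without it, 8 of them with a size of at least 0.2 in either fit.

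**Figure D1:**
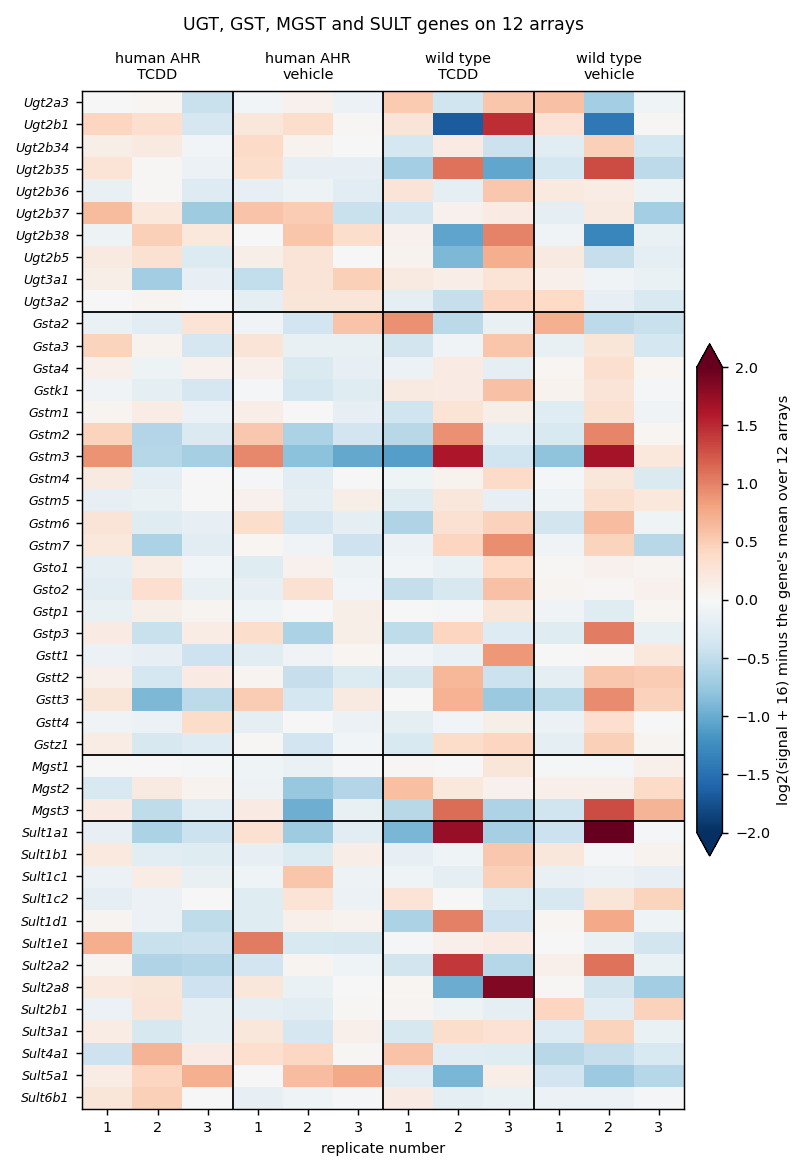
Signals of the 46 genes on the 12 arrays, as log2(signal + 16) minus the gene's mean over all arrays (colour scale from -2 to 2), with genes in rows by family and arrays in columns by group and replicate number. The wild type replicate 2 columns stand out in several rows, Sult1a1 (1417 under TCDD and 1950 under vehicle) and Gstm3 (1283 and 1338) among them, while Mgst1 and Gstp1 are near white throughout.

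The first comparisons asked what TCDD does to conjugation genes through the human and through the mouse receptor. None of the 46 genes passed the limma test at an adjusted p of 0.05 in either genotype, where 0.022% of all genes passed in human AHR cells and 0.0055% in wild type cells. The smallest adjusted p among the 46 was 1 in human AHR and 0.966 in wild type cells. At an unadjusted p under 0.05, 1 gene (2.17%) was found in human AHR cells, against 2.9% of all genes (1.42% with a higher level), and 0 genes in wild type cells, against 4.18% of all genes. The median log2 change over the 46 genes was -0.03 in human AHR cells, with 20 above and 26 below 0, and 0.04 in wild type cells, with 27 above and 19 below 0. Of all genes 46.9% and 55.7% were above 0 in these comparisons. The medians over all genes were -0.01 in human AHR and 0.03 in wild type cells. A missed threshold does not show that the genes did not respond. In human AHR cells the 95% interval of the change lay within -1 and 1 for 37 genes (80.4%), against 91.5% of all genes. In wild type cells it did so for 31 genes (67.4%), against 88.1% of all genes. These counts and shares include dim genes, those among the dimmest 40% of all genes. The offset added to each signal before log2 shrinks their changes, so for them such an interval does not bound a response. Interval counts without dim genes were not made, here or for the comparisons below.

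**Figure D2:**
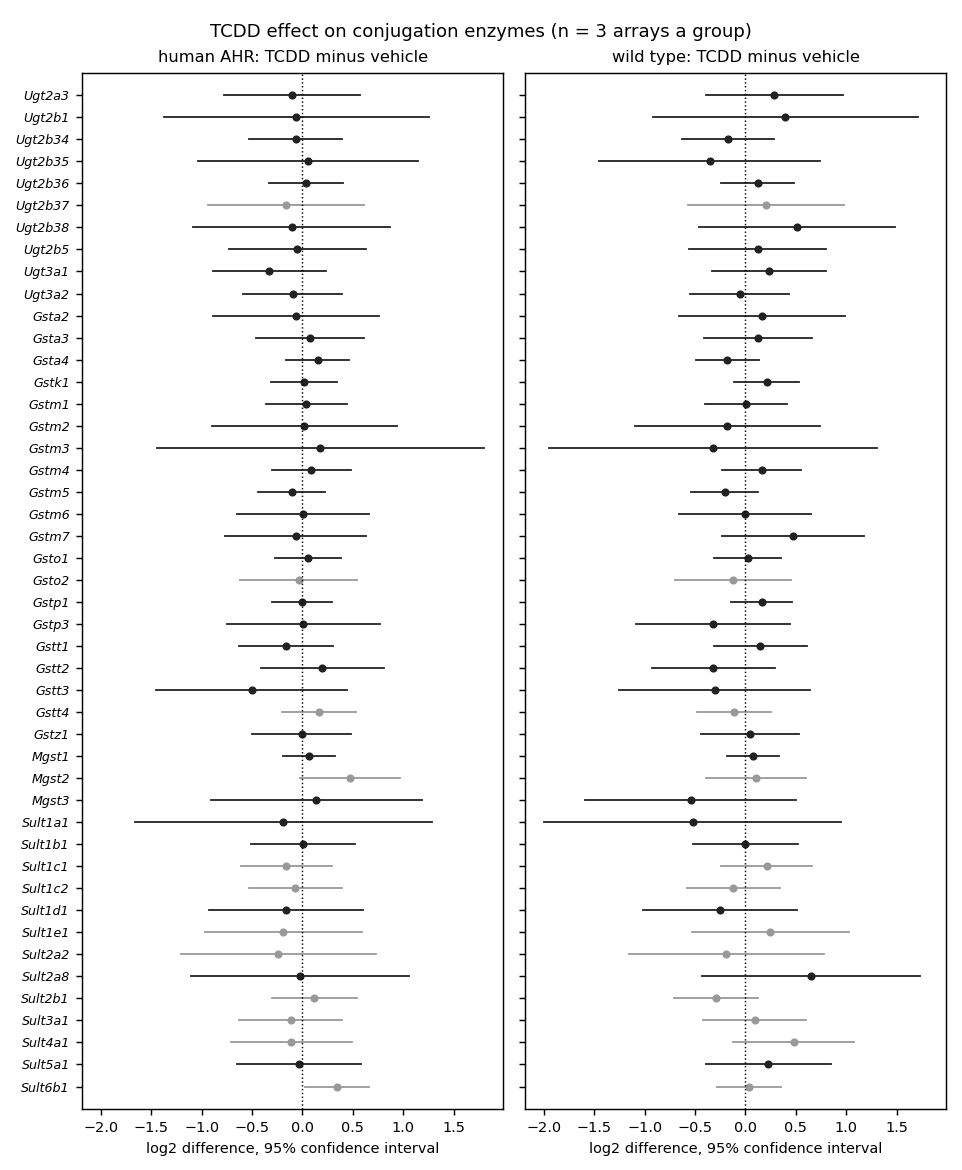
Log2 difference of TCDD minus vehicle for each of the 46 genes (points) with its 95% confidence interval (bars), in human AHR cells on the left and wild type cells on the right, from one fit over 12 arrays with 3 arrays a group. Grey marks the 12 genes among the dimmest 40% of all genes. Only the interval of Sult6b1 in human AHR cells leaves out 0 (0.03 to 0.66), and the intervals of Gstm3, Sult1a1, Ugt2b1 and Ugt2b35 are wide.

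Among the alpha class GSTs, Gsta2 read 565.7, 529.2 and 758.6 in human AHR TCDD arrays, against 591.7, 471.5 and 931.5 in human AHR vehicle arrays. In wild type cells it read 1184, 424.3 and 557.7 under TCDD, against 1027, 425.6 and 451.8 under vehicle. The groups overlapped in both genotypes, and the log2 differences were -0.06 (95% interval -0.89 to 0.76) and 0.16 (-0.66 to 0.99). A further probe set, listed for Gsta1, Gsta2 and Gm3776 together and so naming no single gene, read 9640, 11380 and 10810 in human AHR TCDD arrays, against 9775, 9126 and 10150 in human AHR vehicle arrays, a change of 0.13 (limma adjusted p = 1). Gsta4, which conjugates the lipid peroxidation product 4-hydroxynonenal, had the smallest p for a difference between the 2 genotypes' TCDD changes. It read 798.5, 692.2 and 785.4 in human AHR TCDD arrays, against 791.6, 601.3 and 660.2 in human AHR vehicle arrays. In wild type arrays it read 683.8, 832.7 and 644.8 under TCDD, against 762.4, 930.9 and 757.5 under vehicle. Each human AHR TCDD array thus lay above its same-numbered vehicle array, and the group ranges overlapped in either genotype. The changes were 0.15 and -0.18, and their difference of 0.33 (standard error 0.20, 95% interval -0.11 to 0.77) had an adjusted p of 0.998 in limma.

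The mu class, 7 Gstm genes with closely similar sequences whose probes may share transcripts, had a median change of 0.02 in human AHR and of -0.003 in wild type cells. Gstm5 averaged lower under TCDD in either genotype. It read 722, 737.6 and 817.2 in human AHR TCDD arrays, against 863.1, 712.5 and 883.1 in human AHR vehicle arrays. Wild type signals were 681.1, 949.2 and 724.6 under TCDD, against 760.9, 1015 and 936 under vehicle. The groups overlapped, and the change averaged over genotypes was -0.15 (95% interval -0.39 to 0.08, limma adjusted p = 0.997). Gstm7 had changes of -0.07 in human AHR and 0.47 in wild type cells, and the wild type groups overlapped, with 46.8, 75.7 and 112.6 under TCDD, against 48.9, 76.6 and 30.2 under vehicle. Gstm4 differed by 0.09 and 0.16 in the human AHR and wild type cells, and in human AHR cells its sign turned to -0.005 without TCDD replicate 1.

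Gstp1, the pi class enzyme, was among the steadier genes, and its probes may also read its near copy Gstp2. It read 10360, 12520 and 12020 in human AHR TCDD arrays, against 10820, 11540 and 12580 in human AHR vehicle arrays. Its wild type signals were 11450, 11400 and 13640 under TCDD, against 11020, 9743 and 11880 under vehicle. The groups overlapped, and the changes were -0.004 and 0.16. The theta class member Gstt3 had the largest negative log2 change of the 46 genes in human AHR cells. It read 74.9, 25.2 and 37.8 under TCDD, against 93.2, 44.1 and 71.5 under vehicle, lower in each of the 3 same-numbered pairs. The group ranges overlapped, and the change was -0.50 (95% interval -1.45 to 0.44, limma adjusted p = 1). The wild type difference of Gstt3 was -0.30. Gstt1 differed by -0.16 and 0.15 in the human AHR and wild type cells. For Gstt2 these differences were 0.20 and -0.32, the second -0.54 without both wild type replicate 2 arrays. The difference between genotypes for Gstt1 (-0.31) turned to 0.01 without wild type TCDD replicate 3. Gstk1, the kappa class enzyme of mitochondria and peroxisomes, differed by 0.01 and 0.21, the second with a 95% interval of -0.11 to 0.53.

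Mgst1, a membrane-bound glutathione transferase and peroxidase of the endoplasmic reticulum, had the smallest standard error of the 46 genes. It read 8533, 8453 and 8333 in human AHR TCDD arrays, against 7997, 7803 and 8381 in human AHR vehicle arrays. In wild type cells it read 8620, 8493 and 10140 under TCDD, against 8373, 8276 and 9125 under vehicle. The groups overlapped in either genotype. The changes were 0.07 (95% interval -0.19 to 0.32) and 0.08, and averaged over genotypes 0.07 (-0.11 to 0.25). Mgst1 also had a within-group SD of 0.085 on the log2 scale, which is above 1.182% of the genes outside the dimmest 40%. Its other probe set is dim and differed by -0.10 in human AHR cells. Mgst3 differed by 0.14 in human AHR and -0.54 in wild type cells, and its intervals were wide.

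Among the sulfotransferases, Sult2a8, of the family that sulfates steroids and bile acids, had the largest change of the 46 genes in wild type cells, and it rested on 1 array. It read 448.9, 210.6 and 1613 in wild type TCDD arrays, against 441.5, 332.4 and 263.3 in wild type vehicle arrays. The change of 0.65 (95% interval -0.43 to 1.73, limma adjusted p = 0.966) became -0.13 without TCDD replicate 3. In human AHR cells Sult2a8 read 500.4, 519.2 and 322.2 under TCDD, against 512.4, 392.6 and 436.4 under vehicle, a change of -0.02. Sult1d1, which sulfates catecholamines, differed by -0.16 and -0.25 in the human AHR and wild type cells, and its groups overlapped. Sult6b1, dim and named after its values were seen, was the gene of the 46 with an unadjusted p under 0.05 and with groups that did not overlap in human AHR cells, where 7.21% of all genes did not overlap and 3.34% did so with higher TCDD arrays. It read 6, 10 and 2.7 under TCDD, against 0.6, 1.5 and 2.1 under vehicle, far below the offset of 16, and differed by 0.34 (adjusted p = 1). In wild type cells the groups did not overlap for 2 genes (4.35%), Sult4a1 and Ugt3a1, both higher under TCDD, against 9.0% of all genes in either direction and 6.18% with higher TCDD arrays. Sult1e1, the estrogen sulfotransferase, was dim, and in human AHR cells replicate 1 read 23.8 under TCDD and 33.5 under vehicle, compared with at most 3.5 in the other replicates. Sult2a2 and Sult3a1 were also dim and differed by between -0.24 and 0.09 in either genotype.

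Of the 10 UGT genes, 2 had a change above 0 in human AHR and 7 in wild type cells, with medians of -0.08 and 0.16. Ugt3a1, whose human counterpart transfers N-acetylglucosamine, had the smallest p of the brighter genes in human AHR cells. It read 105.5, 53.2 and 83.3 in human AHR TCDD arrays, against 63, 118.2 and 139.8 in human AHR vehicle arrays. In wild type arrays it read 110.9, 106.9 and 119.2 under TCDD, against 104.2, 90.4 and 85.6 under vehicle. The human AHR arrays overlapped, with replicate 1 higher under TCDD and the other two lower, and the changes were -0.33 and 0.23. Their difference of -0.56 had a 95% interval of -1.36 to 0.24 (limma adjusted p = 0.998). Ugt2b38, one of the UGT2B genes, which act mainly on steroids and bile acids, differed by -0.11 in human AHR and 0.51 in wild type cells. It read 38.5, 8.58 and 86.3 in wild type TCDD arrays, against 32.8, 4.7 and 30.8 in wild type vehicle arrays, so in each treatment replicate 2 was lowest. UGT2B genes resemble one another in sequence, as do SULT2A genes, and how far a probe set reads a neighbour was not tested.

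Other bright genes are described more briefly, and their groups overlapped under TCDD and vehicle in each genotype. In wild type cells the TCDD differences were -0.52 for Sult1a1, 0.39 for Ugt2b1, -0.36 for Ugt2b35, -0.32 for Gstm3 and -0.32 for Gstp3, each with a 95% interval that held 0. Gstm1, a mu class enzyme, read 4106 to 5108 in the human AHR and 3492 to 5691 in the wild type arrays. Gsto1, which reduces dehydroascorbate and transfers thiols, read 1722 to 2274 in the human AHR and 1865 to 2717 in the wild type arrays. Its TCDD differences were 0.05 in human AHR and 0.02 in wild type cells. Gsta3, which detoxifies the aflatoxin epoxide in mice, differed by 0.08 and 0.13 under TCDD in the human AHR and wild type cells. Sult1b1, which sulfates thyroid hormones, differed by 0.01 and 0.0005, and Ugt2b34 by -0.07 and -0.17. Across the 11 genes with several probe sets, 5 of 13 further probe sets had the sign of the chosen one for TCDD in human AHR cells, 11 for TCDD in wild type cells and 7 in each genotype comparison.

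The difference between the TCDD changes of the genotypes was tested directly, and 0 of the 46 genes passed, as did 0% of all genes at an adjusted p of 0.05. At an unadjusted p under 0.05 these were 0 of the 46 and 3.14% of all genes. The 46 differences had a median of -0.04, with 21 above 0 (45.7%, against 44.1% of all genes), and ran from -0.67 for Sult2a8 to 0.68 for Mgst3. Those of Gstt2, Gstm7 and Ugt2b38 were 0.52, -0.54 and -0.62. The 95% interval lay within -1 and 1 for 21 genes (45.7%), against 63.5% of all genes. The change averaged over genotypes called 0 of the 46 and 0.022% of all genes, with a smallest adjusted p of 0.997 among the 46. At an unadjusted p under 0.05 the average found 0 of the 46 and 3.55% of all genes. It was above 0 for 26 genes (56.5%, against 51.9% of all genes), and its interval lay within -1 and 1 for 41 (89.1%, against 98.3%). In same-numbered human AHR pairs, 4 genes (8.7%) were higher under TCDD in all 3 pairs, namely Gsta4, Gsto1, Gstt2 and Sult6b1, against 12.2% of all genes. Another 4 (8.7%) were lower in all 3, namely Gstt3, Sult1c1, Sult1e1 and Ugt2b38, against 14.1% of all genes.

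The UGT1A genes, which include the receptor's known target UGT1A6, share their downstream exons and had no probe set of their own. The 3 probe sets shown here, chosen after their values were seen, list 8 Ugt1a genes at once, so their signal belongs to the cluster and to no single gene. On probe set 1424783 (suffix a_at) the signals were 1074, 1056 and 1120 in human AHR TCDD arrays, against 796.1, 875.8 and 740.8 in human AHR vehicle arrays. In wild type cells they were 1359, 2439 and 1190 under TCDD, against 1407, 1523 and 1040 under vehicle. Every human AHR TCDD array lay above every human AHR vehicle array on this probe set and on 1426260 (a_at) and 1426261 (s_at), as for 3.69% of all probe sets, and the wild type groups overlapped on each. In one limma fit over all 45037 probe sets the human AHR changes were 0.43, 0.41 and 0.49, each with an adjusted p of 1, where 0.00666% of all probe sets passed, as against 0.00444% in wild type cells and 0.0133% for the average. A further fit paired same-numbered arrays within each genotype, although the design text gives 1 array per mouse and the pairing came from the values. Its limma adjusted p for TCDD in human AHR cells were again 1. The 3 probe sets list the same 8 genes, so their changes are not separate results. The wild type changes were 0.27, 0.26 and 0.29, and 0.07, 0.11 and 0.06 without both replicate 2 arrays. The differences between the human AHR and wild type changes were 0.15, 0.15 and 0.20 (adjusted p = 1.00).

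**Figure D3:**
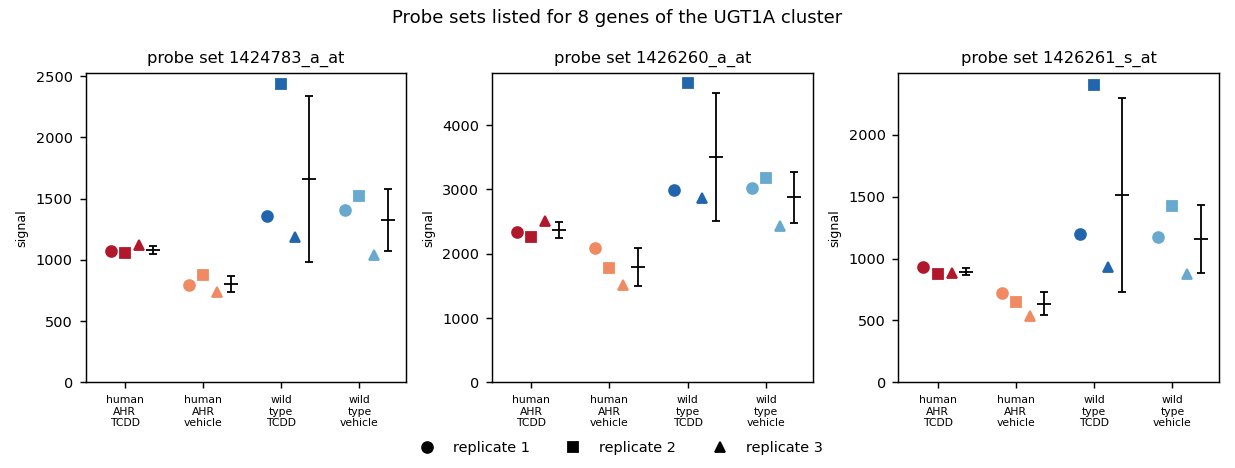
Signal (linear axis from 0) on the 3 probe sets that list 8 UGT1A genes, by group, with 1 point an array, its shape giving the replicate number, and bars for the mean ± SD of 3 arrays. In each panel the human AHR TCDD points lie above the human AHR vehicle points, both lie below all wild type points of the same treatment, and wild type TCDD replicate 2 stands highest (2439, 4651 and 2404).

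The UGT1A probe sets were also compared between genotypes, and none passed. Under vehicle the log2 differences of the 3 probe sets were -0.69, -0.68 and -0.83 (limma adjusted p = 0.9917 each, unadjusted 0.00722, 0.00259 and 0.00859, with 0.00666% of all probe sets passing), and the human AHR arrays lay below all wild type arrays on each, as for 4.23% of all probe sets. Under TCDD they were -0.54, -0.53 and -0.63, with 0.00444% of all probe sets passing, and again no arrays overlapped, as for 6.01% of all probe sets. Without both wild type replicate 2 arrays the differences under TCDD were -0.23, -0.31 and -0.24, and those under vehicle -0.58, -0.60 and -0.67.

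Genotype was compared for the 46 genes under each treatment. None passed at an adjusted p of 0.05, where 0.0055% of all genes passed under vehicle and 0% under TCDD. At an unadjusted p under 0.05 there were 3 genes (6.52%) under vehicle, against 4.23% of all genes, with 2 higher (background 2.63%) and 1 lower (1.6%). Under TCDD there were 2 genes (4.35%), against 4.11%, with 1 higher (background 1.61%) and 1 lower (2.5%). Under vehicle 30 of the 46 log2 differences were below 0, with a median of -0.10, while 55.1% of all genes were above 0 and their median was 0.03. All 7 Gstm genes, all 4 Gstt genes and 17 of 20 GST genes were below 0 under vehicle, and 8 of 10 UGT genes above 0. Without both wild type replicate 2 arrays 11 of 20 GST differences were below 0 under vehicle, 24 of the 46 were above 0, and the Gstm median was 0.08 and not -0.11. Signs then turned for 12 of the 46 genes under vehicle, Ugt2b35 (-0.13 with all arrays, 0.44 without) among them, and for 15 under TCDD. Under TCDD 28 were below 0 and 18 above (39.1%, against 47.6% of all genes), with a median of -0.10. Group ranges did not overlap for 7 genes (15.2%) under vehicle, against 10.7% of all genes, and for 3 (6.52%) under TCDD, against 8.1%. Of the 7, 4 were higher in human AHR cells (background 6.27%) and 3 lower (4.41%), and of the 3, 1 was higher (3.23%) and 2 were lower (4.86%). The 95% interval lay within -1 and 1 for 28 genes (60.9%) under vehicle and 32 (69.6%) under TCDD, against 88.7% and 89.6% of all genes. Without both wild type replicate 2 arrays, 5 genes (10.9%) under vehicle and 8 (17.4%) under TCDD had an unadjusted p under 0.05, against 4.31% and 5.8% of all genes, and none passed when adjusted. The 8 were Ugt2b34 and Ugt2b35, higher in human AHR cells, and Gstk1, Gstt1, Sult2a8, Ugt2a3, Ugt2b1 and Ugt2b36, lower in them. This count depended on the arrays kept. Without wild type TCDD replicate 3 alone, 2 genes (4.35%) had an unadjusted p under 0.05 under TCDD, against 5.27% of all genes. They were Sult5a1, higher in human AHR cells, and Gstk1, lower in them, while Sult2a8 and Ugt2b35 changed sign.

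Sult5a1, a sulfotransferase whose substrates are little described, had the largest positive difference. It read 80.4, 132.5 and 148 in human AHR vehicle arrays, against 58.4, 42.4 and 48.9 in wild type vehicle arrays. Under TCDD it read 90.6, 113.5 and 142.5 in human AHR arrays, against 67.4, 35.1 and 90.2 in wild type arrays. Each human AHR array lay above each wild type array of the same treatment. The difference was 1.02 under vehicle (standard error 0.29, 95% interval 0.40 to 1.64, limma adjusted p = 0.965) and 0.76 under TCDD (0.14 to 1.38, adjusted p = 1.00). These were 0.94 and 0.46 without both wild type replicate 2 arrays.

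Gstk1 was the gene with the smallest p under TCDD. It read 421.1, 384.6 and 348.2 in human AHR TCDD arrays, against 502.4, 499.1 and 668.1 in wild type TCDD arrays. Under vehicle it read 432.1, 341.6 and 369.9 in human AHR arrays, against 463.2, 529.5 and 436.5 in wild type arrays. In neither treatment did the groups overlap. The differences were -0.51 under TCDD (standard error 0.15, 95% interval -0.83 to -0.18, limma adjusted p = 1.00) and -0.31 under vehicle (-0.63 to 0.01). They were -0.58 and -0.24 without both wild type replicate 2 arrays. Ugt2b36 was also lower in human AHR vehicle arrays without overlap (463.4, 485.4 and 444.8, against 600.7, 576.3 and 485.8 in wild type vehicle arrays), with a difference of -0.24, and of -0.33 under TCDD, which was -0.53 without both wild type replicate 2 arrays.

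The dim genes Mgst2, named after its values were seen, and Sult4a1 also had an unadjusted p under 0.05 under vehicle. Mgst2, a membrane-bound enzyme that can also make leukotriene C4, read 13.5, 2.6 and 4.9 in human AHR vehicle arrays, against 17.9, 17.9 and 25.2 in wild type vehicle arrays, a difference of -0.68. Sult4a1, a sulfotransferase best known from brain, read 16.4, 18.3 and 10.3 in human AHR vehicle arrays, against 1.6, 2.7 and 4.9 in wild type vehicle arrays. Its difference was 0.70, while its other probe set had -0.05, so its probe sets disagreed. Sult1c1 and Ugt2b38 completed the genes without overlap under vehicle, both higher in human AHR arrays. Ugt2b38 differed by 0.80, and by 0.40 without both wild type replicate 2 arrays. Of the other genes with small p under vehicle, Gstt2 differed by -0.51, Gsta4 by -0.25, Mgst3 by -0.85 and Sult1a1 by -0.79. Without both wild type replicate 2 arrays Mgst3 was at -0.46 and Sult1a1 at 0.02. Under TCDD, Gstt1 differed by -0.46, Gstm7 by -0.63, Ugt3a1 by -0.45, Gstz1, which isomerises maleylacetoacetate in tyrosine breakdown, by -0.31, and Ugt2b34 by 0.29, which was 0.47 without both wild type replicate 2 arrays.

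**Figure D4:**
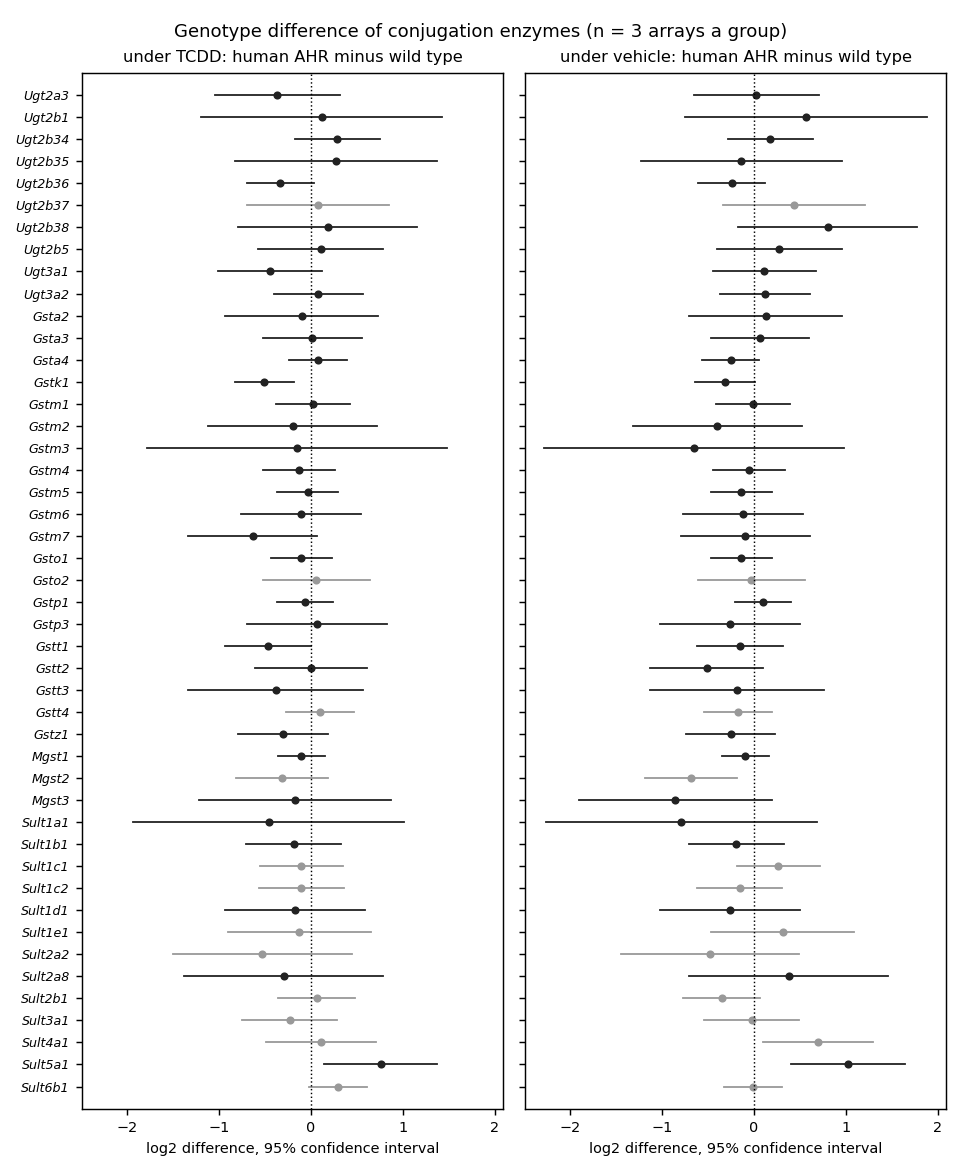
Log2 difference of human AHR minus wild type for each of the 46 genes (points) with its 95% confidence interval (bars), under TCDD on the left and under vehicle on the right, from the same fit with 3 arrays a group. Grey marks genes among the dimmest 40%. Sult5a1 lies right of 0 in both panels (0.76 and 1.02), and Gstk1 lies left of 0 (-0.51 and -0.31).

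Markers of other liver cells differed between genotypes in part. The summed signal of 10 stellate cell markers was 223.7 to 280.6 in human AHR TCDD arrays, against 154.6 to 193.7 in wild type TCDD arrays, and overlapped under vehicle, with 148.2 to 305.4 against 131 to 177.2. Much of the gap under TCDD rested on 1 gene, Reln, the brightest of these markers in human AHR TCDD arrays. Reln read 126.6, 81.3 and 129.2 there, against 38.3, 65.6 and 49.7 in wild type TCDD arrays and 42.6, 56.7 and 59.3 in human AHR vehicle arrays. The sum of 10 endothelial markers was 231.5 to 360.7 in human AHR vehicle arrays, against 212.1 to 226.7 in wild type vehicle arrays, and overlapped under TCDD, with 208.5 to 325.2 against 223.5 to 233.8. The sums of 10 Kupffer cell and macrophage markers overlapped, but Cd68 made up most of them. The other 9 summed to 224 to 1134 in human AHR TCDD arrays, against 129.7 to 162.1 in wild type TCDD arrays, and to 190.1 to 1230 in human AHR vehicle arrays, against 103.1 to 280.4 in wild type vehicle arrays. Vsig4, a receptor of resident liver macrophages, read 12.5 to 81.3 in human AHR arrays, against 2.07 to 11.5 in wild type arrays. C1qa read 169.7 to 312.4 in human AHR replicates 2 and 3, 4.2 and 10.8 in human AHR replicate 1, and at most 25.8 in wild type arrays. In wild type cells 2 sums also separated the treatments. That of 6 cholangiocyte markers was 603.7 to 697.6 under TCDD, against 771.3 to 935.6 under vehicle. That of 6 T and B lymphocyte markers was low, at 58.7 to 81.8 under TCDD, against 28.1 to 41.4 under vehicle. Both overlapped in human AHR cells. The part of these markers in the genotype and TCDD differences was not tested. In such cultures fewer cells of a type and less RNA per cell cannot be told apart.

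Several of these genes varied widely within the wild type groups. In wild type replicate 2, 6 of the 46 genes (13.0%) read at least 1 log2 unit above the mean of replicates 1 and 3 under both treatments, against 0.687% of all genes. These were Gstm2, Gstm3, Mgst3, Sult1a1, Sult2a2 and Ugt2b35. Another 2 (4.35%), Ugt2b1 and Ugt2b38, were at least 1 below in both, against 0.335% of all genes. These counts describe 1 array per treatment set against 2 others and carry no test.

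Sult1a1, the phenol sulfotransferase, had the widest gap under vehicle, and under TCDD a gap similar in size to that of Ugt2b1. It read 211.2, 1417 and 253.6 in wild type TCDD arrays, against 301.1, 1950 and 401.3 in wild type vehicle arrays. Human AHR arrays read 368, 261.5 and 302.8 under TCDD, against 511.4, 244.8 and 350.1 under vehicle. Replicate 2 of wild type exceeded every other array, by 2.53 under TCDD and 2.43 under vehicle on the log2 scale relative to replicates 1 and 3. Gstm3 read 183, 1283 and 308.1 in wild type TCDD arrays, against 227.1, 1338 and 478.5 in wild type vehicle arrays. Human AHR replicate 1 was high as well, with 780.9 under TCDD and 816.8 under vehicle, while the other human AHR arrays read 194.5 to 269.4. The same replicate led the human AHR arrays for Gstm2, at 649.9 and 690.7, so high Gstm2 and Gstm3 were not particular to the female-type arrays.

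Ugt2b35 read 204.1, 729.2 and 154.6 in wild type TCDD arrays, against 260.4, 849.3 and 229.2 in wild type vehicle arrays, and 297.8 to 432.6 in human AHR arrays. Ugt2b1 went the other way, with 945.6, 236.2 and 2212 in wild type TCDD arrays, against 962.1, 282.5 and 799.7 in wild type vehicle arrays. Its human AHR arrays read 618.5 to 1058. Sult2a2, of the hydroxysteroid sulfotransferases known to be higher in female mouse liver, read 3.57, 51.3 and 0.99 in wild type TCDD arrays, against 11, 37.4 and 7 in wild type vehicle arrays. Of the other genes known to differ by sex in mouse liver, Gstt3 was 1.07 and 0.99 higher in replicate 2 under TCDD and vehicle, Sult3a1 0.36 and 0.64 higher and Gsta4 0.32 and 0.29 higher. Gstp1, known to be higher in males, was at -0.13 and -0.23. Sult1e1 was at 0.05 and 0.06, and Sult2a8 at -1.94 and -0.04. Within groups, Gstm3 had an SD of 1.17, Sult1a1 of 1.06 and Ugt2b1 of 0.94 on the log2 scale, above 99.77%, 99.64% and 99.45% of the genes outside the dimmest 40%.

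**Figure D5:**
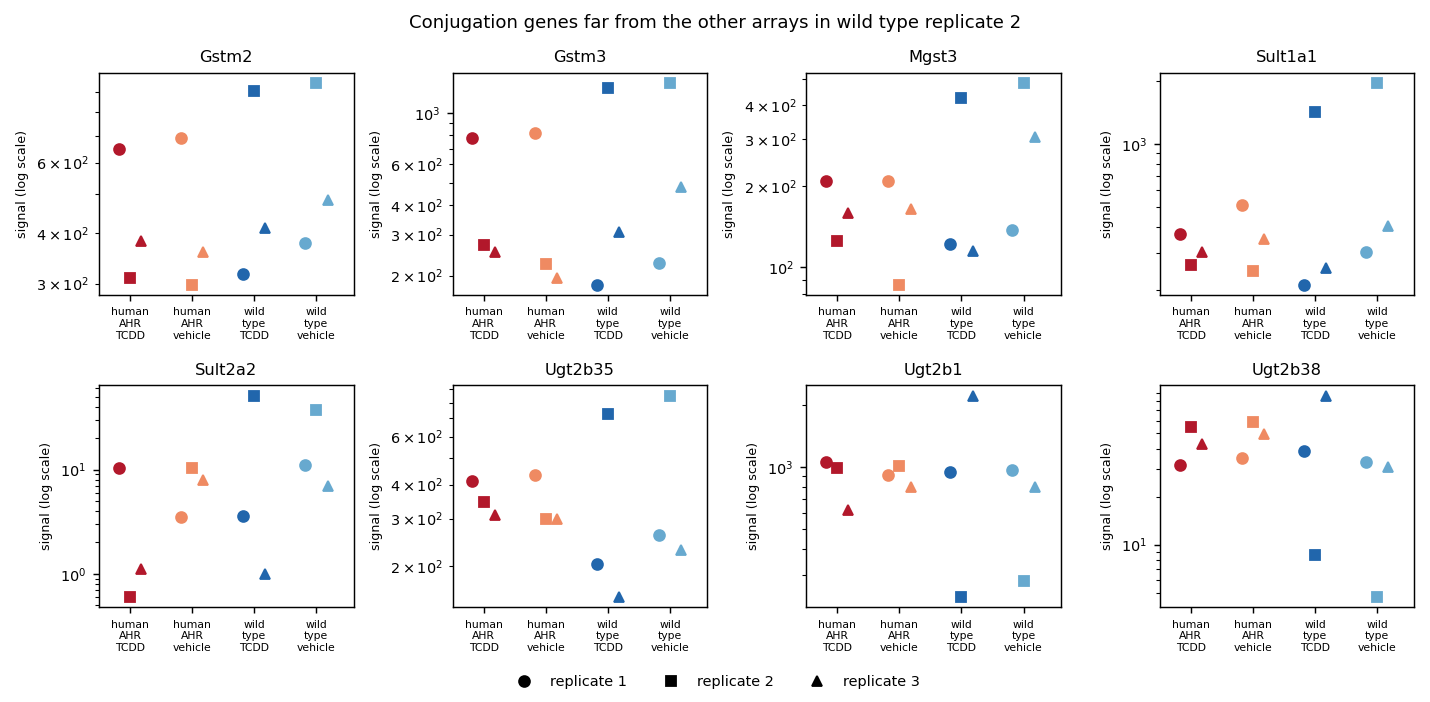
Signal (log axis) of the 8 genes at least 1 log2 unit away from replicates 1 and 3 in wild type replicate 2 under both treatments, by group, with 1 point an array and its shape giving the replicate number. Squares of the wild type groups are the highest points for Sult1a1 (1417 and 1950) and Ugt2b35 (729.2 and 849.3) and the lowest for Ugt2b1 (236.2 and 282.5), and circles of the human AHR groups are also high for Gstm2 and Gstm3.

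These arrays also bore on the TCDD comparison. Leaving out wild type TCDD replicate 2 alone left 1 female-type array on the vehicle side, and 12 of the 46 genes (26.1%) then had an unadjusted p under 0.05 in wild type cells, against 10.7% of all genes. The 12 held 4 of the 6 genes that were high in replicate 2, namely Mgst3, Sult1a1, Sult2a2 and Ugt2b35, all lower under TCDD, and both that were low in it, Ugt2b1 and Ugt2b38, both higher under TCDD. Without both replicate 2 arrays these were 3 genes (6.52%), Sult2a8, Sult1d1 and Sult2b1, against 5.89% of all genes. None passed at the adjusted threshold in either fit.

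Of 50 other genes of conjugation, 45 were measured and 0 passed at an adjusted p of 0.05 in any of the 6 comparisons, with the background shares given above. The 6 described here were picked for the smallest unadjusted p over the comparisons, so they do not represent the list. Nfe2l2, which encodes NRF2, read 3314, 2666 and 3131 in human AHR TCDD arrays, against 2122, 1992 and 1871 in human AHR vehicle arrays. Wild type signals were 2484, 4106 and 2079 under TCDD, against 1727, 2216 and 2145 under vehicle. The human AHR groups did not overlap and the wild type groups did (0.45, and 0.24 without both replicate 2 arrays), and the average change was 0.53 (95% interval 0.21 to 0.84, limma adjusted p = 0.904). Gclc, the catalytic subunit of the enzyme that starts glutathione synthesis, differed by 0.42 on average (adjusted p = 0.977). Nqo1, a quinone reductase and known AHR target, differed by 0.62 in human AHR and 0.41 in wild type cells, and by 0.16 in wild type cells without both replicate 2 arrays. Gclm, the modifier subunit, differed by 0.05 and 0.58. Ugdh, which makes the glucuronic acid donor, differed by 0.54 between human AHR and wild type vehicle arrays, and Nnmt, a nicotinamide methyltransferase, by -0.59. By role, the median TCDD change in human AHR cells was 0.04 for 14 genes of cofactor supply, -0.01 for 11 other conjugating enzymes, -0.07 for 10 transporters and 0.05 for 10 regulators. In wild type cells these medians were -0.06, -0.05, 0.28 and 0.04.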

How the data were processed

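RNA of hepatocytes was measured on 12 arrays with 45101 probe sets. Per the design text and the submitters' processing notes, the authors used GCOS for the scans and Expression Console 1.1 with PLIER-MM for normalization. They also used SAM, which was not run here. The deposited values are linear intensities. Their trimmed mean (2% off each end) was 500 in wild type TCDD arrays (3) and 150 in the others (9), so every array was rescaled to 150. A fixed mean of this kind is what global scaling gives, not PLIER, and the discrepancy is unexplained. The different scaling fell on the wild type TCDD group alone, and rescaling evens only the trimmed mean. A processing difference of that group cannot be told apart from TCDD or genotype in the comparisons that use it. Signals in the text are rescaled intensities. Log2 values add an offset of 16, which shrinks changes of dim genes.

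After removing 64 control probe sets, 34945 of 45037 named 1 gene symbol, 932 named several and 9160 were unlisted and not analysed by gene. limma 3.58.1 (R 4.3.3, eBayes with intensity trend) fitted 1 mean per group over 12 arrays with 8 residual degrees of freedom. Tests were two-sided, with Benjamini-Hochberg adjustment over 18193 genes. The fit was checked on simulated data. Named genes were the 8 members with the smallest p per comparison outside the dimmest 40%, known AHR targets, sex-dependent genes, and members with an unadjusted p under 0.05 whose probe sets disagree. The members, lists, rules and tests were chosen with earlier results of these data known. No pair of arrays was identical (0 pairs).

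The design text gives 1 array per mouse. Same-numbered human AHR arrays deviated together (r = 0.235, 0.265 and 0.188) and were treated as paired in an alternative fit. The values, not the design, give this pairing. For wild type the correlations were 0.251, 0.507 and 0.048, and TCDD replicate 3 correlated more with vehicle replicate 1 (0.282). The alternative fit still paired wild type arrays by number as well, and for the genotype comparisons it took replicate number as a term. Alternatives were other offsets, scalings, filters, fits, probe set rules, the replicate block and leaving out arrays. The fits of shared UGT1A probe sets, the replicate 2 and replicate 3 counts and the Kupffer sum without Cd68 were added after seeing the data. Python 3.11.15 and matplotlib 3.10.9 made tables and figures.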

Additional observations from a re-analysis of the deposited data

How the results depend on the processing

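The count of called genes was 0 of 46 in each of the 6 comparisons and under every alternative run, the replicate block included, where the paired fit also called 0. The smallest adjusted p over the alternatives was 1 for TCDD in human AHR, 0.413 for TCDD in wild type, 0.624 for their average, 0.784 for their difference, 0.49 for genotype under vehicle and 0.371 for genotype under TCDD. The genes at an unadjusted p under 0.05 ranged over 0 to 2, 0 to 12, 0 to 4, 0 to 6, 1 to 6 and 2 to 8 in these comparisons.

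The following tallies cover the members named by the rule in each comparison. Of their 512 differences under alternatives other than single arrays left out, 4 changed sign. With the mean over probe sets, Mgst1 under TCDD in human AHR cells was at -0.016 and the difference of TCDD changes for Mgst3 at -0.060. With array weights, Gstz1 between genotypes under TCDD was at 0.00804. Without both wild type replicate 2 arrays, Sult1a1 between genotypes under vehicle was at 0.022. With 1 array left out, 6 of 576 changed sign. Gstm4 under TCDD in human AHR cells ran from -0.00516 to 0.18, Sult2a8 under TCDD in wild type from -0.13 to 1.30, its average from -0.074 to 0.64 and its difference from -1.32 to 0.11. The difference of TCDD changes for Gstt1 ran from -0.49 to 0.00977, and Sult1a1 between genotypes under vehicle from -1.29 to 0.022. Leaving out arrays or averaging in dimmer probe sets is the construction of these settings, and further causes were not tested. With 3 arrays a group, changes well under 1 on the log2 scale were mostly not detectable, and larger ones could also miss the threshold. Sult5a1 at 1.02 between genotypes under vehicle (limma adjusted p = 0.965) and Cyp1a1 at 3.00 in wild type cells (0.966) did so. Dim signals near or below the offset of 16 limit 12 of the 46 genes.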
